A study of Mus musculus with 12 samples.

Results

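The cluster of miR-322, miR-503, miR-351, miR-542 and miR-450 is a group of miRNA genes on mouse chromosome X, described here by 10 mature miRNAs: both arms of miR-322, miR-503, miR-351 and miR-542, and the 5p arms of miR-450a and miR-450b. The members were chosen by their names and shared locus, out of 1929 mature miRNAs in the deposited count table, and all 10 were among the 607 that passed the filter on low counts. The cluster drew attention because miR-503-5p was among the larger falls in earlier results of these same data. The PZH-against-water values of miR-503-5p are therefore given as a description with no test, and the tests concern its 9 neighbours. The libraries hold small RNA from livers of C57BL/6 mice, and all 12 come from animals injected intraperitoneally with carbon tetrachloride (CCl4), a toxin that injures hepatocytes and leads to fibrosis. In the PZH group (n = 6) Pien Tze Huang, a medicine of the Chinese tradition, was given daily into the stomach, and in the water group (n = 6) double distilled water took its place. The labels state no sex, age, dose or duration, and no uninjured liver was part of the comparison. The labels number the libraries 1 to 6 in each group without stating that each came from a separate mouse, so that p-values measure the spread between these libraries.

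A miRNA is cut from a hairpin precursor whose 5p and 3p arms can each be loaded into an Argonaute protein, and the seed, bases 2 to 8 of the mature strand, finds the messenger RNAs to be repressed. In miR-322 and miR-503 the seed resembles that of the miR-15 and miR-16 family, which represses cell cycle genes such as cyclin D1 and Cdc25a, and both are known for slowing the cycle during muscle differentiation. Neighbouring hairpins of a cluster are commonly cut from 1 long primary transcript, after which each mature strand has its own processing, loading and decay.

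In the GENCODE M21 annotation of GRCm38, the build that the submitters' processing notes name, the 7 hairpins lie on the minus strand of chromosome X between 53047997 and 53054349, a span of 6353 bases. In the direction of transcription the order is Mir322, Mir503, Mir351, Mir542, Mir450-2, Mir450-1 and Mir450b. The RefSeq long non-coding RNA gene C430049B03Rik, from 53053112 to 53057190, covers the first 3 hairpins and not the other 4. In GENCODE M21 the same gene runs only from 53055046 to 53057190, upstream of all 7 hairpins, and another non-coding gene, Gm28730, lies from 53051194 to 53053159, between Mir351 and Mir542. The hairpin of miR-503, at 53053984 to 53054054, starts 295 bases downstream of the start of the miR-322 hairpin, at 53054255 to 53054349.

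The mature sequences are shown because their seeds define which members could act on the same messages. They come from RefSeq (GRCm38.p6), where all 10 members matched by name, and are written 5′ to 3′ with the seed in capitals.
mmu-miR-322-5p: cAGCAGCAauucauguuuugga
mmu-miR-503-5p: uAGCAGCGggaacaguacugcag
mmu-miR-322-3p: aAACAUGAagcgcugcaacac
mmu-miR-503-3p: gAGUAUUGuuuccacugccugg
mmu-miR-351-5p: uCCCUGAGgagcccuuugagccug
mmu-miR-351-3p: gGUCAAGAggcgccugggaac
mmu-miR-542-3p: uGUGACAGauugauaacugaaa
mmu-miR-542-5p: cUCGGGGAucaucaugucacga
mmu-miR-450a-5p: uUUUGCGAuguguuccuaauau
mmu-miR-450b-5p: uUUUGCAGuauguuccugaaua
In bases 2 to 7 miR-322-5p and miR-503-5p are alike, and they part at base 8. The seed of miR-351-5p is that of miR-125a-5p and miR-125b-5p. By edit distance (the number of base changes, insertions and deletions), the closest other mature miRNA of the table lay 6 edits from miR-322-5p and 8 from miR-503-5p. The closest pair among the 10 was miR-450a-5p and miR-450b-5p, at 5 edits, and miR-450a-5p is cut from both Mir450-1 and Mir450-2, so that its counts cannot be assigned to either hairpin.

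The hairpins of miR-503 and miR-322 are given to show how both arms sit in 1 precursor, with the mature arms in capitals.
Mir503: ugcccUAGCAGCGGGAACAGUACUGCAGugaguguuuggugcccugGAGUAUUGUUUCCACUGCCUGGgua
Mir322: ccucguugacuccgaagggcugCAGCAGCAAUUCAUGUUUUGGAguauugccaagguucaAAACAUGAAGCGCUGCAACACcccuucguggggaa

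Every member had a lower estimated level with PZH, and the largest fall was that of miR-503-5p, the value that drew attention to the locus. Its level with PZH was 55.3% of that with water, whereas the 9 others lay between 75.8% and 93.3%. On the log2 scale, its interval of 2 SE to each side lay wholly below those of 6 of the 9 and overlapped the rest. Of those 9, only miR-322-3p passed the test, at 77.1% of the water level. The opposite arm of the same precursor, miR-503-3p, stood at 88.3%.

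Levels are counts scaled to library size (CPM) after TMM scaling, a correction for library composition, and carry no adjustment for length, since the mature strands are 21 to 24 bases long. In the water group miR-542-3p was the most abundant, at 626 ± 109 CPM, followed by miR-322-3p at 486 ± 39.0 CPM (SD, n = 6 each); the ranges of these neighbours in the order overlapped. Next came miR-450a-5p at 277 ± 32.4 and miR-322-5p at 270 ± 19.3 CPM, also with overlapping ranges, then miR-503-5p at 121 ± 10.3 and miR-351-5p at 97.9 ± 11.3 CPM (SD, n = 6 each). Below them stood miR-503-3p and miR-450b-5p, at 25.6 ± 2.87 and 24.1 ± 2.39 CPM. The lowest members were miR-351-3p at 7.78 ± 1.95 and miR-542-5p at 4.13 ± 1.64 CPM (SD, n = 6 each). With PZH the order of the 10 differed in 1 place, where miR-351-5p (84.7 CPM) was above miR-503-5p (66.8 CPM), although the ranges of that pair overlapped in both groups.

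**Figure D1:**
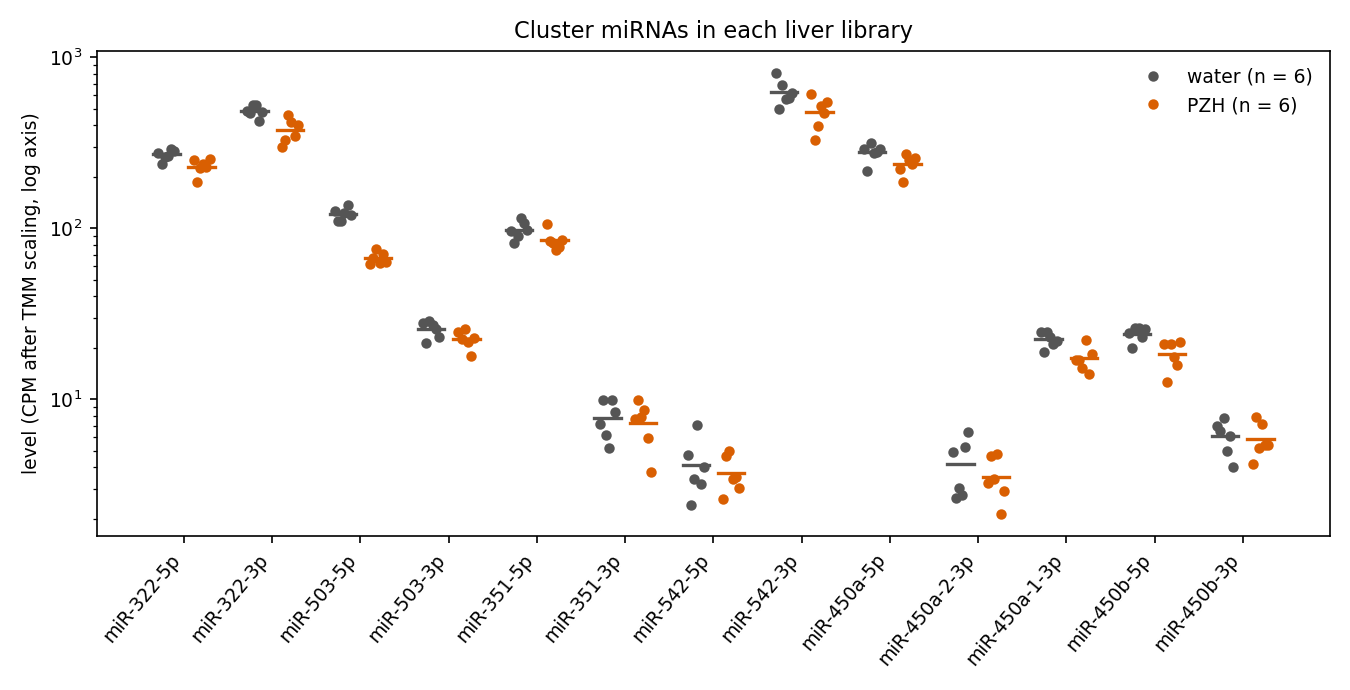
Level of the 10 members and of the 3 further arms of the cluster in each library, in CPM after TMM scaling on a log axis, in genomic order; points are libraries (6 per group) and lines are group means. For miR-503-5p the PZH libraries sit between 62.0 and 75.1 CPM, all below the water libraries, while the groups of every other arm overlap.

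For miR-503-5p, a repressor of cyclins, the lowest, median and highest water libraries held 110, 122 and 137 CPM, and the PZH libraries 62.0, 65.1 and 75.1 CPM. All 6 PZH libraries were thus below every water library, and the spread within each group was narrow. The log2 fold change was -0.85 (SE 0.09), which as the value that drew attention to the locus is a description. Over all tested miRNAs, groups that did not overlap, with PZH lower, made up 4.94% (30 of 607). Raw counts of miR-503-5p were between 403 and 2105 per library.

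The partner arm miR-503-3p ranged from 21.2 to 28.5 CPM with water, with a median of 26.4, and from 17.9 to 25.8 CPM with PZH, with a median of 22.6. All 6 PZH libraries were below the water median, but only 1 was below the lowest water library. The log2 fold change of miR-503-3p was -0.18 (SE 0.12, edgeR adjusted p = 0.35), with an interval of 2 SE to each side from -0.42 to 0.06. With 1 library left out it ranged from -0.23 (without water replicate 2) to -0.10 (without PZH replicate 5).

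The arms of miR-322, whose 5p strand carries the seed shared with the miR-15 and miR-16 family, were both lower in estimate. The 3p arm, the more abundant of the pair, ranged from 425 to 528 CPM with water (median 482) and from 299 to 461 CPM with PZH (median 372). In 5 of 6 PZH libraries it was below every water library, with PZH replicate 3 as the exception. It fell by 0.37 on the log2 scale (SE 0.11; edgeR adjusted p = 0.0194). It missed the threshold when water replicate 4 was left out (edgeR adjusted p = 0.0813), when PZH replicate 2 (0.0683) or PZH replicate 5 (0.0771) was, and with no low-count filter (0.0992). The adjusted p of miR-322-3p was 0.0349 with DESeq2 and 0.0178 with limma-voom.

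For miR-322-5p the water libraries lay between 238 and 292 CPM (median 271) and the PZH libraries between 185 and 253 CPM (median 231). All 6 PZH libraries were below the water median, and 4 of 6 below the lowest water library. The log2 fold change of -0.23 (SE 0.09) missed the threshold (edgeR adjusted p = 0.083), with an interval of 2 SE from -0.42 to -0.05.

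Between the miR-503 hairpin and the distal hairpins lies miR-351, known in mice as a repressor of the vitamin D receptor in hepatic stellate cells. The level of miR-351-5p was 82.4 to 114 CPM with water (median 97.0) and 74.7 to 105 CPM with PZH (median 83.2). The highest PZH library, replicate 1, was above 4 of the 6 water libraries, and only 2 of 6 PZH libraries were below the lowest of them. The log2 fold change was -0.21 (SE 0.11, edgeR adjusted p = 0.2). It was -0.28 without PZH replicate 1 and -0.14 without water replicate 4. The 3p arm miR-351-3p, with 31 to 189 counts per library, gave -0.10 (SE 0.23; edgeR adjusted p = 0.863), with an interval of 2 SE from -0.56 to 0.36.

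The distal hairpins carry miR-542, whose 3p strand is known to repress the survival gene Birc5, and the miR-450 strands. The level of miR-542-3p was 500 to 810 CPM with water (median 596) and 329 to 610 CPM with PZH (median 496). Water replicate 1 was high among the water libraries and PZH replicate 2 low among the PZH libraries. The log2 fold change was -0.39 (SE 0.15; edgeR adjusted p = 0.076), with an interval of 2 SE from -0.68 to -0.09. Without water replicate 2, the lowest of its group, or without PZH replicate 1, the highest of its group, miR-542-3p passed the threshold (edgeR adjusted p = 0.0457 and 0.0322). It passed in only these 2 of the 12 fits with 1 library left out. The log2 fold change was -0.30 without water replicate 1 (edgeR adjusted p = 0.202) and -0.28 without PZH replicate 2 (0.168).

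For miR-450b-5p the water libraries held 19.8 to 26.0 CPM (median 24.9) and the PZH libraries 12.6 to 21.6 CPM (median 19.2). All 6 PZH libraries were below the water median, and PZH replicate 2 was the lowest. Its log2 fold change of -0.40 (SE 0.14), the most negative among the 9 neighbours, missed the threshold (edgeR adjusted p = 0.0595) but passed it without water replicate 2 (0.0393) or PZH replicate 1 (0.0409). Those were the only 2 of 12 fits with 1 library left out that passed. The log2 fold change was -0.29 without PZH replicate 2 (edgeR adjusted p = 0.157) and -0.34 without PZH replicate 5 (0.161).

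The level of miR-450a-5p was 217 to 314 CPM with water (median 284) and 186 to 271 CPM with PZH (median 244). All 6 PZH libraries were below the water median, but only 1 of 6 was below the lowest water library. The log2 fold change was -0.22 (SE 0.11, edgeR adjusted p = 0.169). It was -0.29 without water replicate 2 (edgeR adjusted p = 0.0573) and -0.14 without PZH replicate 2. The scarce strand miR-542-5p, with 17 to 69 counts per library, stood at -0.14 (SE 0.27; edgeR adjusted p = 0.821); at this depth a change of the size of that of miR-542-3p was not detectable.

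Counted together, 1 of the 9 neighbours of miR-503-5p was called lower at an edgeR adjusted p under 0.05 and 0 higher, where 11.4% of the 607 tested miRNAs were called lower and 9.88% higher. The share of neighbours called was therefore near the background. DESeq2 and limma-voom each called the same number of neighbours. DESeq2, run without the edgeR filter, called 66 of 1144 miRNAs lower (5.77%) and 74 higher (6.47%). With limma-voom it was 64 of 607 lower (10.5%) and 57 higher (9.39%). The DESeq2 shares thus include scarcer miRNAs and are not on the same base. At an unadjusted p under 0.05, 4 of the 9 were lower, against 17.0% of all. All 9 estimates were negative, against 54.9% of all tested miRNAs, and their median log2 fold change was -0.22, against -0.03 over all tested. These estimates share libraries and, for arms of 1 hairpin, a precursor, so the count is not one of independent cases. All 10 members kept a negative sign under TMM, TMMwsp, RLE and total-count scaling.

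By the RefSeq extent of C430049B03Rik, which GENCODE M21 does not share, the 5 neighbours within the gene had a median log2 fold change of -0.21 and the 4 members beyond it -0.31. Of those 4, edgeR, DESeq2 and limma-voom called 0, and 2 were lower at an unadjusted p under 0.05 with edgeR.

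The other arms of the miR-450 hairpins in the table were miR-450a-1-3p, miR-450a-2-3p and miR-450b-3p. The first had a mean of 22.4 ± 2.32 CPM in the water group and 17.3 ± 2.90 in the PZH group (SD, n = 6), with a log2 fold change of -0.37 (SE 0.13; edgeR adjusted p = 0.0595). The others were scarce, at -0.22 (SE 0.28) and -0.05 (SE 0.20). By edgeR, DESeq2 and limma-voom 0 of the 3 were called, and 1 was lower at an unadjusted p under 0.05 with edgeR. The sequences of miR-450a-1-3p and miR-450b-3p are 2 edits apart, and how reads matching several miRNAs were counted is not stated in the labels, so their split is uncertain.

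**Figure D2:**
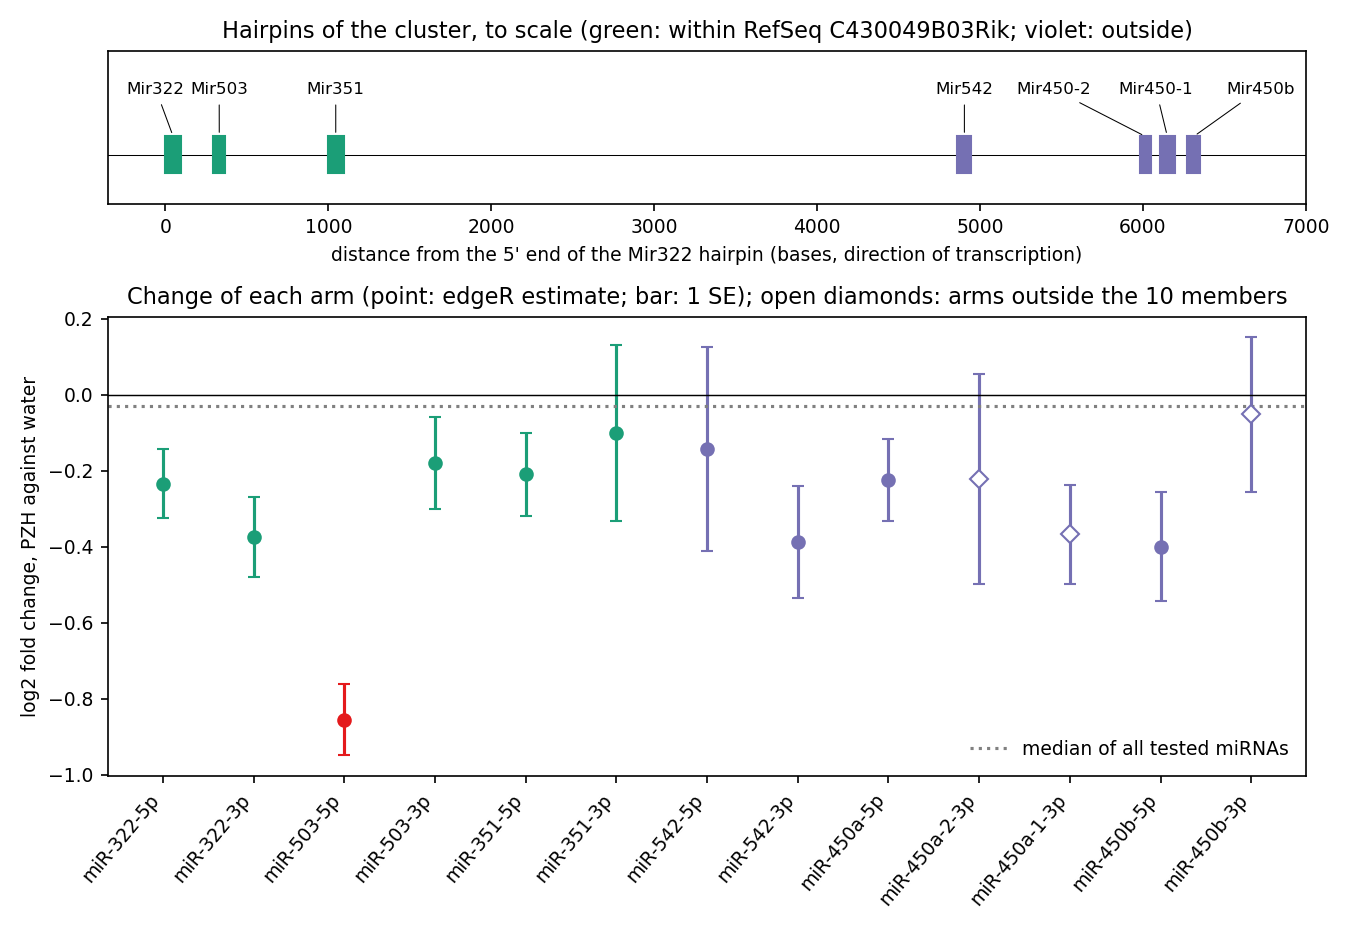
Top, the 7 hairpins to scale by distance in bases from the 5′ end of Mir322; bottom, the log2 fold change of each arm with PZH against water, with bars of 1 SE and a dotted line at the median of all tested miRNAs (-0.03). The estimate of miR-503-5p, -0.85, lies below those of all other arms, which run from -0.40 to -0.05.

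Ratios within a library need no scaling between libraries, and set miR-503-5p directly against its neighbours. Since they contain the value that drew attention to the locus, they are descriptions. The ratio of miR-503-5p to miR-322-5p was 0.419 to 0.468 in the water libraries (median 0.458) and 0.249 to 0.362 in the PZH libraries (median 0.289). Water libraries were close to each other in this ratio, and every PZH library was below them. The groups also did not overlap in the ratio to miR-322-3p (medians 0.243 and 0.184) and in that to miR-351-5p (medians 1.26 and 0.818). For miR-322-3p they nearly touched, with a lowest water ratio of 0.2076 and a highest PZH ratio of 0.2072. The groups overlapped in the ratios to the other 6 members. The levels of miR-503-5p alone already did not overlap, and the share of such ratios over all miRNAs was not computed.

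As a share of the summed CPM of the 10 members, miR-503-5p held 6.26% ± 0.659 with water and 4.44% ± 0.683 with PZH (SD, n = 6 each). The sum itself ranged from 1669 to 2151 CPM with water and from 1229 to 1654 CPM with PZH. Without miR-503-5p the sum of the other 9 was 1560 to 2025 CPM with water (median 1821) and 1161 to 1591 CPM with PZH (median 1519), and 5 of 6 PZH libraries were below the lowest water library. This sum is mostly miR-542-3p and miR-322-3p, and as a score over chosen members it was given no test.

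The balance between arms of a hairpin was followed as the ratio of 5p to 3p counts, after adding 1 count to each. For miR-503 it ranged from 3.83 to 5.31 with water (median 4.83) and from 2.49 to 3.94 with PZH (median 2.88), with 5 of 6 PZH libraries below every water library. On the log2 scale the means were 2.24 ± 0.18 and 1.57 ± 0.22 (SD, n = 6), a difference of -0.67 (SE 0.13), again a description. With each of the 12 libraries left out in turn the difference lay between -0.76 and -0.62.

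The 4 other hairpins whose arms could be paired by name kept no such difference past the threshold. Mir450-1 and Mir450-2, which share miR-450a-5p, were not among them. In miR-322 the 3p arm outnumbered the 5p arm, with a median ratio of 0.538 with water and 0.602 with PZH (log2 difference 0.15, SE 0.14; limma adjusted p = 0.539). In miR-351 the 5p arm was dominant, with medians of 12.3 and 11.6 (log2 difference -0.09, SE 0.26; limma adjusted p = 0.839), and in miR-450b the medians were 3.59 and 3.40 (-0.38, SE 0.26; limma adjusted p = 0.365). In miR-542 the 3p arm exceeded the 5p arm by a median of 176-fold with water and 143-fold with PZH (log2 difference of the 5p to 3p ratio 0.30, SE 0.30; limma adjusted p = 0.574). At an unadjusted p under 0.05, 0 of the 4 passed either, and over all 137 hairpins tested limma called 8.03%. The SEs for miR-351, miR-450b and miR-542 are large, and with each library left out in turn the log2 difference ranged from 0.06 (without PZH replicate 1) to 0.22 for miR-322. It ranged from -0.51 to -0.19 (without PZH replicate 2) for miR-450b, and from 0.12 (without PZH replicate 2) to 0.49 (without water replicate 4) for miR-542.

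**Figure D3:**
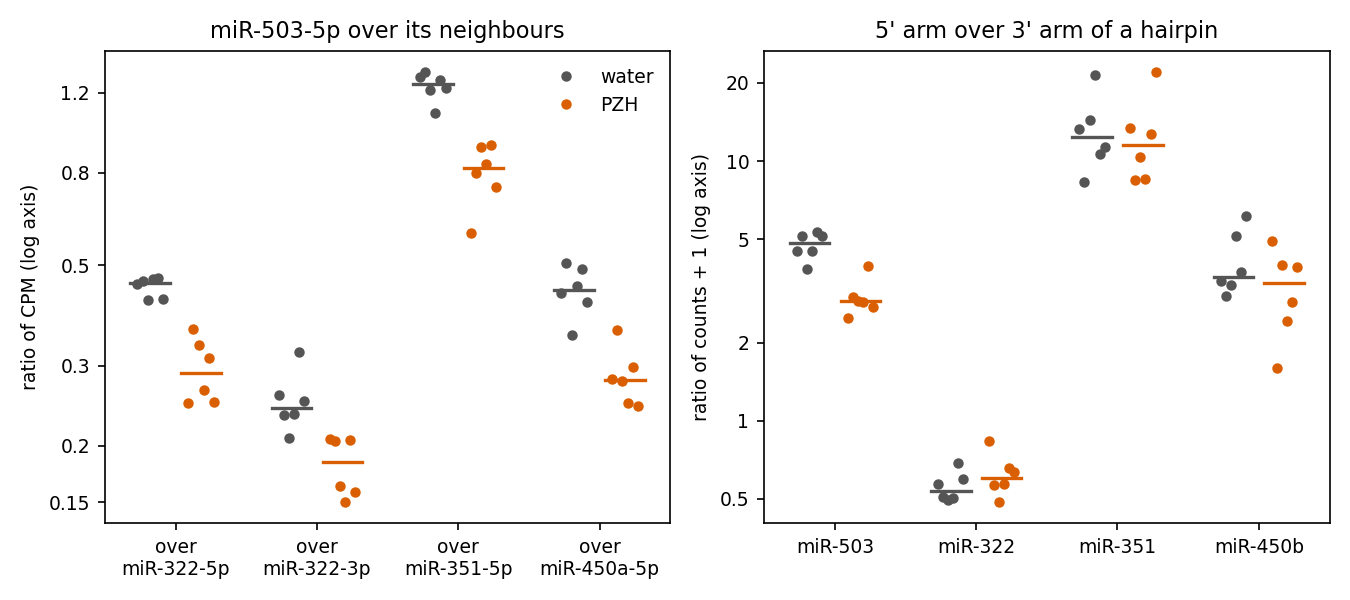
Left, the ratio of miR-503-5p CPM to that of 4 neighbours in each library; right, the ratio of 5p to 3p counts (plus 1) for 4 hairpins; log axes, points are libraries (6 per group) and lines are medians. The miR-503-5p to miR-322-5p ratio has a median of 0.458 with water and 0.289 with PZH without overlap, while the arm ratios of all 4 hairpins shown, miR-503 included, overlap between the groups.

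Within a group, where the contrast between PZH and water plays no part, the libraries show whether members vary together. Pearson's r and Spearman's rho of log2 CPM were computed for miR-503-5p and miR-322-5p with the other members in each group of 6, which gave 34 values of each. Adjusted over these 34, 0 passed the threshold by an exact permutation test for either measure, and 2 had an unadjusted exact p under 0.05 for r. The largest r joined miR-322-5p and miR-542-3p in the PZH group (r = 0.93, rho = 0.943, n = 6, exact permutation p = 0.00417 and 0.0167, adjusted p = 0.142 and 0.378). It was 0.936 without the 2 libraries farthest from the median of miR-322-5p. In the water group the same pair gave r = 0.424 (rho = 0.314, n = 6, exact permutation p = 0.406 and 0.564), and 0.152 without the 2 farthest libraries. Of the 34 values of r, 25 were positive, and 17 were when the 2 farthest libraries were left out.

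For miR-503-5p and miR-322-5p, neighbours on the chromosome with nearly the same seed, r was 0.808 with water (rho = 0.771, n = 6, exact permutation p = 0.0528 and 0.103, adjusted p = 0.491 and 0.582) and -0.403 with PZH (rho = -0.657, n = 6, exact permutation p = 0.469 and 0.175, adjusted p = 0.82 and 0.595). Without the 2 libraries farthest from the median of miR-503-5p these were 0.817 and -0.942, values that rest on very few libraries and were given no test. The signs differed between the groups, and that difference was not tested. For the arms of the miR-503 hairpin r was 0.269 with water (n = 6, exact permutation p = 0.592) and -0.065 with PZH (n = 6, exact permutation p = 0.892). For those of miR-322 it was -0.37 with water (n = 6, exact permutation p = 0.456) and 0.169 with PZH (n = 6, exact permutation p = 0.788).

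Over all 12 libraries, after subtracting group means, the pattern of each miRNA was set against those of the 341 others with a mean of at least 10 CPM, as a description. The points share libraries and scaling, and the miRNAs named are the highest of many. With miR-322-5p, the members miR-450b-5p (r = 0.789, rank 4), miR-542-3p (0.764, rank 10) and miR-450a-5p (0.676, rank 17) were near the top, whereas its own 3p arm ranked 168 of 341 (r = 0.04). Outside the cluster the nearest were miR-18a-5p (r = 0.84), miR-335-5p (0.809), miR-301a-3p (0.794), miR-15a-5p (0.778) and miR-30e-5p (0.776).

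With miR-503-5p, the best placed of the cluster members with a mean of at least 10 CPM was miR-450a-5p, at rank 99 of 341 (r = 0.232), and miR-322-5p ranked 136 (r = 0.09). The 5 miRNAs most like it were miR-142a-3p (r = 0.849), miR-142a-5p (0.824), miR-223-3p (0.798), miR-181c-5p (0.783) and miR-191-3p (0.739). The miR-142a arms are known from leukocytes in general and miR-223-3p from myeloid cells. Within the water and PZH groups taken separately, r was 0.896 and 0.789 for miR-142a-3p, 0.808 and 0.905 for miR-142a-5p, and 0.596 and 0.985 for miR-223-3p. None of these 5 is a genomic neighbour of miR-503-5p.

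**Figure D4:**
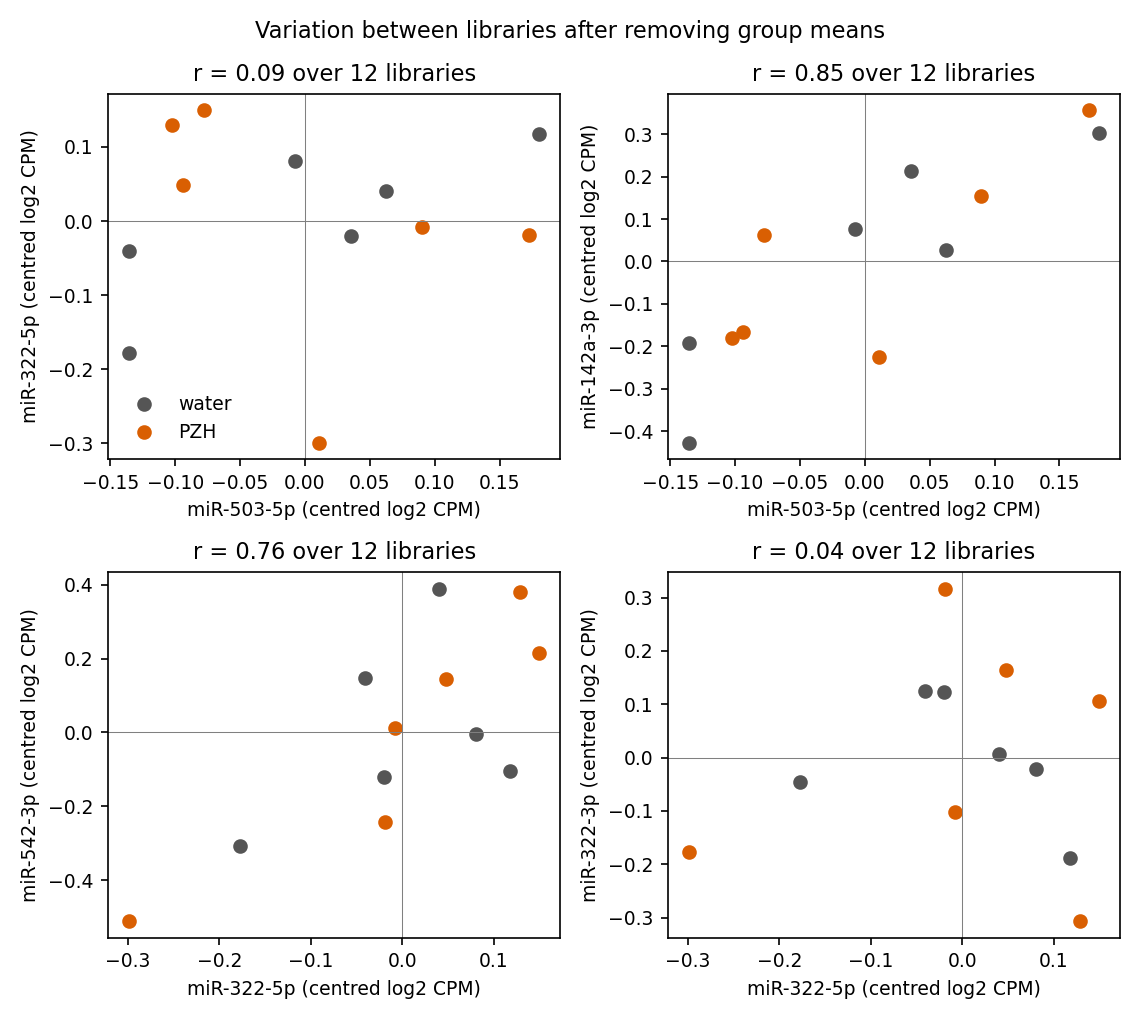
Log2 CPM minus the group mean in each of 12 libraries (grey, water; orange, PZH) for 4 pairs of miRNAs, with Pearson's r over the 12 libraries as a description. Points of miR-503-5p and miR-142a-3p run along a rising line (r = 0.85), those of miR-503-5p and miR-322-5p (0.09) and of the arms of miR-322 (0.04) do not, and those of miR-322-5p and miR-542-3p do (0.76).

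Values of leukocyte miRNAs are given beside this pattern. The leukocyte list of 6, which holds 3 of those 5 miRNAs, had a summed level of 4264 to 6046 CPM with water (median 5278) and 3170 to 5610 CPM with PZH (median 3792), and 1 of the 6, miR-223-3p, fell by the edgeR test, a share near the 11.4% called lower over all tested. Levels of miR-223-3p were 792 to 1103 CPM with water and 497 to 847 CPM with PZH (log2 fold change -0.58, SE 0.13, edgeR adjusted p = 0.00583), and miR-142a-3p stood at -0.32 (SE 0.13, edgeR adjusted p = 0.092). In the same list miR-142a-5p stood at -0.27 (SE 0.15, edgeR adjusted p = 0.24) and miR-150-5p at 0.05 (SE 0.16, edgeR adjusted p = 0.898). There miR-155-5p stood at -0.34 (SE 0.14, edgeR adjusted p = 0.0951). The median log2 fold change of the list was -0.30, against -0.03 over all tested. Of the 5 miRNAs most like miR-503-5p, miR-181c-5p stood at -0.05 (edgeR adjusted p = 0.873) and miR-191-3p at 0.03 (edgeR adjusted p = 0.929). The endothelial pair, miR-126a-3p and miR-126a-5p, also fell, with a summed level of 12863 to 17096 CPM with water and 10272 to 13900 CPM with PZH. By edgeR both of these 2 were called lower, where 11.4% of all tested were. Their log2 fold changes were -0.36 (SE 0.07, edgeR adjusted p = 0.00281) and -0.33 (SE 0.11, edgeR adjusted p = 0.0445). The part of these leukocyte and endothelial miRNAs in the values of miR-503-5p was not tested. In whole tissue, fewer cells of a type and less of a miRNA per cell cannot be told apart.

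The hepatocyte miRNA miR-122-5p, which marks the labelled tissue, held 90316 to 126884 CPM in every library. The mesenchymal and stellate list gave 0 calls of 6 by edgeR, DESeq2 and limma-voom, with 1 higher at an unadjusted p under 0.05, and edgeR called 2 of 5 epithelial and biliary and 1 of 6 hepatocyte miRNAs lower, where the share called lower over all tested was 11.4%. A count of 1 of 6 is near that share and is not a fall of the list. The hepatocyte call was miR-802-5p, at -0.65 on the log2 scale (SE 0.17, edgeR adjusted p = 0.0138). The 2 epithelial and biliary calls were miR-200c-3p and miR-141-3p, and the median log2 fold change of that list was -0.20. In water replicate 2 they held 189 and 299 CPM, against water medians of 64.6 and 114 CPM. All 6 PZH libraries were below the water median for both. Of 3 muscle miRNAs 2 were tested, with 0 called by these tools and 0 at an unadjusted p under 0.05, and no listed marker was at 0 in all libraries. Totals per library ranged from 4961913 to 20211784 counts. Water replicate 2 was the lowest water library for 9 of the 13 arms of the cluster.

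Relatives by seed, cut from other loci, were followed beside the members. The 5 tested miRNAs outside the cluster that share bases 2 to 7 with miR-322-5p and miR-503-5p are the cell cycle repressors miR-15a-5p, miR-15b-5p, miR-16-5p, miR-195a-5p and miR-497a-5p. Of them edgeR and limma-voom called 0, DESeq2 called 1 higher, and 1 was higher at an unadjusted p under 0.05 with edgeR. Their log2 fold changes were -0.04 (SE 0.10) for miR-15a-5p, 0.21 (SE 0.08) for miR-15b-5p, -0.13 (SE 0.08) for miR-16-5p, 0.00 (SE 0.11) for miR-195a-5p and 0.13 (SE 0.12) for miR-497a-5p. By level miR-16-5p led this group, at 5268 CPM with water against 270 for miR-322-5p and 121 for miR-503-5p.

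Of the relatives of miR-351-5p by seed, miR-125a-5p had 620 ± 91.9 CPM in the water group and 491 ± 72.0 in the PZH group (SD, n = 6). It fell by 0.34 on the log2 scale (SE 0.11; edgeR adjusted p = 0.0474), a call that DESeq2 did not make. The far more abundant miR-125b-5p, at 2298 CPM in the water group and 2228 in the PZH group, stood at -0.05 (SE 0.08; edgeR adjusted p = 0.817).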

How the data were processed

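Per the labels, small RNA was extracted from liver with Trizol and libraries were made with a TruSeq small RNA kit. The authors deposited raw counts per mature miRNA for 12 libraries, with no normalization. The submitters' processing notes name cutadapt, FastQC, BWA, DESeq2 and GRCm38; the counting tool, miRNA annotation and use of strand are not stated in the sources used here. No value in the table is 1, while 3049 are 2. Reads carry no molecular identifiers.

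The members and lists were chosen with earlier results of these data known. All miRNAs were fitted together in edgeR 4.0.16 (R 4.3.3) by its quasi-likelihood method (TMM scaling; default filter, 607 of 1929 kept), with Benjamini-Hochberg adjustment over all tested and calls at an adjusted p under 0.05. SEs derive from the test statistic. Arm ratios were tested with limma 3.58.1 on log2 counts plus 1, for hairpins with a mean of at least 20 counts in each arm. Correlations used log2 CPM (prior count 2) and two-sided exact permutations. The text names the members, the other arms of the cluster, seed relatives and the 5 miRNAs most like miR-503-5p and miR-322-5p. Fits were tested on simulated data. Alternatives included DESeq2 1.42.0, limma-voom, other scalings and filters, and each library left out. Water and PZH libraries share the numbers 1 to 6, but no source pairs them, and after centring, libraries of the same number correlated between -0.15 and 0.08.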

Additional observations from a re-analysis of the deposited data

Results flagged for a closer look

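Among 26 sets of 6 libraries (13 arms of the cluster in both groups), 1 held a library far from the others: miR-351-5p in PZH replicate 1 was at 105 CPM, against 84.9 CPM in the next highest PZH library. Chance marks about 1 in 20 such sets. Without this library the log2 fold change of miR-351-5p was -0.28, still short of the threshold (edgeR adjusted p = 0.0658).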

How the results depend on the processing

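Under 22 alternatives the log2 fold change of miR-503-5p lay between -0.89 and -0.77. Of its 9 neighbours, 1 was called lower in the fit reported, 0 without a filter on low counts, 4 with limma-voom and quality weights (miR-322-3p, miR-322-5p, miR-542-3p and miR-450b-5p), and 0 to 3 with 1 library left out. Leaving out PZH replicate 2, PZH replicate 5 or water replicate 4 gave 0, and it was 3 without water replicate 2 or PZH replicate 1. With a replicate block it was 3 (miR-322-3p, miR-542-3p and miR-450b-5p); the labels give no pairing, and 1 of 6 water libraries correlated best with its own number. Over all miRNAs, 72 of 607 were called lower with limma-voom and quality weights, and 61 of 607 with the replicate block. Without the filter on low counts 51 were called lower. The number was 79 without water replicate 2 and 60 without PZH replicate 1, within a range of 47 to 79 over the 12 libraries left out. No alternative called a neighbour higher. A filter of 10 CPM in 6 libraries left 35 of all miRNAs called lower, against 69, with fewer tested. The same filter made the log2 fold changes of all members it kept less negative, miR-503-5p included (from -0.85 to -0.77). Those of miR-322-3p, miR-542-3p and miR-450b-5p moved to -0.29, -0.30 and -0.31. Those of miR-322-5p, miR-503-3p, miR-351-5p and miR-450a-5p moved to -0.15, -0.09, -0.12 and -0.14. Signs turned for scarce arms: with 1 library left out miR-351-3p ranged from -0.18 to 0.027, miR-542-5p from -0.28 to 0.10, and the log2 arm ratio difference of miR-351 from -0.27 to 0.060, all without a call. The replicate block changed no arm ratio call. With 17 to 69 counts of miR-542-5p per library, depth limits its precision.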

Other observations

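Chosen after the values of the cluster were seen, the 45 other tested miRNAs placed by RefSeq on chromosome X alone had a median log2 fold change of -0.03. Of them 25 had negative estimates, against 54.9% of all tested miRNAs. At an adjusted p under 0.05 edgeR called 3 lower and 3 higher, against 11.4% and 9.88% of all tested. Their difference from the cluster members was not tested. Of 11 miRNAs in the table that share bases 2 to 7 with miR-322-5p, itself included, 7 passed the filter on low counts.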
